A study of Saccharomyces cerevisiae with 12 samples.

Results

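The mitochondrial ribosomal protein genes of *Saccharomyces cerevisiae* were followed through the loss of Ups1 and through treatment with tunicamycin. Members were taken from the count table by name: every gene called *MRPL*, *MRPS* or *RSM* with a number, together with *MRP1*, *MRP2*, *MRP4*, *MRP7*, *MRP10*, *MRP13*, *MRP17*, *MRP20*, *MRP21*, *MRP49*, *MRP51*, *IMG1*, *IMG2* and *MNP1*. The rule found 68 genes among the 7110 features of the table, 40 of the large subunit and 28 of the small subunit, on 14 chromosomes. All 68 passed the filter on low counts and were tested in every comparison. Ups1 is a lipid transfer protein of the mitochondrial intermembrane space that carries phosphatidic acid towards cardiolipin synthesis. Tunicamycin blocks protein N-glycosylation and causes protein stress in the endoplasmic reticulum.

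Poly(A)-selected RNA was sequenced in 12 libraries, 3 in each of 4 groups: untreated wild-type cells, untreated *ups1*Δ cells, and cells of each genotype given 1 µg/ml tunicamycin for 3 h. The labels give S288c as the background of all cells, grown to log phase in synthetic complete glucose medium, and name no vehicle for the untreated cultures. The labels do not say whether the 3 libraries of a group came from separate cultures, so p-values measure only the spread between these libraries. The deleted gene *UPS1* stood at 41.0 to 73.2 CPM, the count of a gene scaled to the effective library size, in the 6 wild-type libraries and at 0 to 0.412 CPM in the 6 *ups1*Δ libraries. The strains differed in more than *UPS1*. The biosynthetic genes *LYS2* and *MET17* had no count in the wild-type libraries and stood at 256 to 541 CPM in *ups1*Δ, wild-type cells expressed the **a**-cell genes *MFA1*, *MFA2* and *STE2*, and *ups1*Δ cells expressed the α-cell genes *MF(ALPHA)1* and *STE3*. Every difference between genotypes below therefore includes mating type and these markers, whose part cannot be told apart from that of *UPS1*. Library totals ran from 4650828 to 7101983 counts. Replicate 2 of tunicamycin-treated wild-type cells stood apart in **a**-cell genes, with *STE2* at 422 CPM against 997 and 1240.3 CPM in the other replicates of its group. It had no *LYS2* count, and the member counts and medians of the comparisons that use it are also given without it. Over all genes, chi-square per degree of freedom between its counts and those of replicates 1 and 3 was 29.3 and 31.3. Between replicates 1 and 3 it was 10.3. Replicate 3 of untreated *ups1*Δ cells also stood apart, at 16.8 and 20.1 from replicates 1 and 2, against 2.08 between those.

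The mitochondrial ribosome translates the few messages of the mitochondrial genome, which in yeast encode core subunits of the respiratory chain and of the ATP synthase, and the ribosomal protein Var1. Its other proteins are encoded in the nucleus, made in the cytosol and imported. The small subunit decodes the message, and the large subunit forms the peptide bond and leads the new chain through its exit tunnel to the inner membrane. Many of these proteins have bacterial counterparts, while others are found only in mitochondria. By the uniform nomenclature, 25 members of the large subunit and 17 of the small subunit have a bacterial homologue, 15 and 10 are specific to mitochondria, and *RSM22*, which encodes a methyltransferase-like assembly factor, belongs to neither class. Messages of this group are textbook targets of Puf3, an RNA-binding protein that binds downstream of the stop codon and promotes decay or translation depending on the carbon source.

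Nearly all members shared the letters recognised by Puf3. The motif TGTANATA, searched on the coding strand within 200 bases after the stop codon of the R64 (sacCer3) genome, was present in 67 of 68 members (98.5%). It was present in 843 of 5994 windows of nuclear coding genes (14.1%) and in 6 of 139 genes taken by name as cytosolic ribosomal protein genes (4.32%). All 40 genes of the large subunit and 27 of 28 of the small subunit held it, the exception being *RSM22*, and a window of 300 bases gave the same 67 members. A longer form, with a C 2 bases before the T that opens the motif, was present in 54 members (79.4%) and in 199 of 5926 genes that are not members (3.36%). A match is a description of letters and not a measured binding site. The sites below belong to *MNP1*, *MRPL39*, *MRPS8* and *MRP2*, whose messages fell far under tunicamycin in wild-type cells, to *MRP20*, *RSM7* and *MRPS12*, for which no change was called there, and to *RSM19*, the member with the most sites. Each is written 5′ to 3′ on the coding strand with the motif in capitals.
*MNP1*, chrVII:375742-375765, plus strand: atatatcaTGTAAATAtgtttaac
*MRPL39*, chrXIII:251210-251233, minus strand: atttatccTGTAAATAagtaatgg
*MRPS8*, chrXIII:572764-572787, plus strand: acggaccaTGTAAATAataatatt
*MRP2*, chrXVI:876217-876240, minus strand: tacgcactTGTAAATAaatacatg
*MRP20*, chrIV:1278502-1278525, plus strand: ctcacactTGTATATAcggagcaa
*RSM7*, chrX:638195-638218, minus strand: aacttgccTGTACATAaacacatt
*MRPS12*, chrXIV:694272-694295, minus strand: caacctttTGTAAATAgcaatgac
*RSM19*, first site, chrXIV:695027-695050, minus strand: ggatctagTGTATATAgatttcta
*RSM19*, second site, chrXIV:694999-695022, minus strand: atatatcaTGTAAATAagatcaag
*RSM19*, last site, chrXIV:694971-694994, minus strand: actcgggcTGTATATAtatatata

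The motif occurred once in 54 members, at 2 places in 12 and at 3 places in *RSM19*. The 81 sites began 8 to 165 bases after the stop codon, with a median of 54 bases, against a median of 62 bases over 841 sites of other genes. The free letter was A in 37 member sites, T in 26, C in 17 and G in 1, whereas T led in other genes with 430 of their sites. Since nearly all members hold the searched motif, its presence cannot separate the genes that fell far from those with no called change. In the 300 bases before the start codon, searched on both strands, no such excess was seen. CCAAT, the core bound by the Hap complex, was present in 36.8% of members and 41.8% of all promoters, GATGAG in 17.6% and 19.1%, AAAATTTT in 4.41% and 9.43%, and CACGTG in 4.41% and 3.55%.

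**Figure D1:**
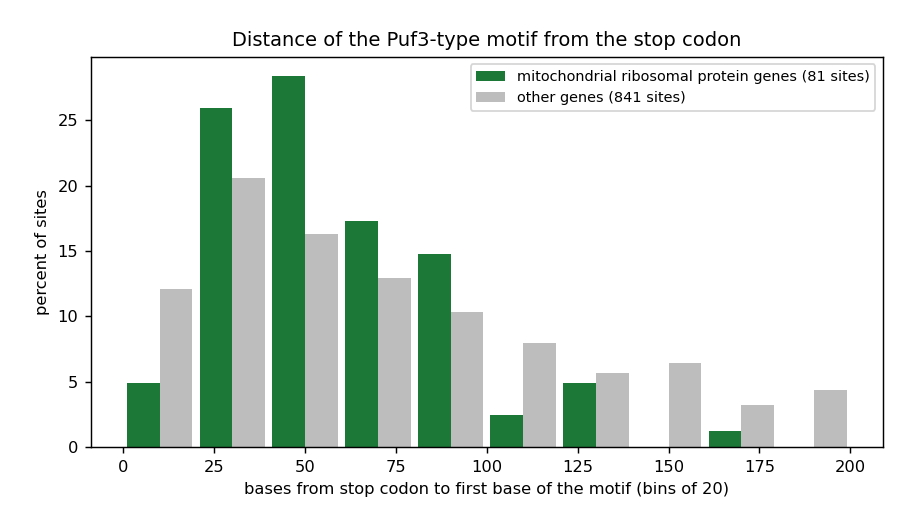
Distance in bases from the stop codon to the first base of TGTANATA (x axis, bins of 20 bases) against the percent of sites in each bin (y axis), for the 81 sites of mitochondrial ribosomal protein genes (green) and 841 sites of other nuclear coding genes (grey). Member sites gather within the first 100 bases, with a median of 54 bases, and the sites of other genes reach further out, with a median of 62 bases.

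In untreated wild-type cells the levels of the members per kilobase of coding sequence spanned an 8.91-fold range. The median level was 90.0 CPM per kilobase. *RSM22* was lowest at 25.4 ± 1.27 CPM per kilobase (SD, n = 3), and *MRPS12*, which encodes the decoding-centre protein uS12m, was highest at 226 ± 20.1 CPM per kilobase. *MRPL39* (bL33m) followed at 200 ± 24.8 CPM per kilobase, and the mean ± SD ranges of both genes overlapped. The genes of the large subunit spanned a 3.92-fold range and those of the small subunit an 8.91-fold range, and their medians were 82.4 and 98.1 CPM per kilobase. *RSM22* and *MRPS12* stayed the lowest and the highest member in all 4 groups. Taken as a whole, the members made up 0.350 to 0.373% of all counts in untreated wild-type libraries, 0.494 to 0.532% in untreated *ups1*Δ, 0.328 to 0.364% in treated wild-type and 0.520 to 0.535% in treated *ups1*Δ libraries. Shares of the 2 *ups1*Δ groups lay above all wild-type shares. Bulk RNA cannot tell fewer cells expressing a gene from less RNA per cell.

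**Figure D2:**
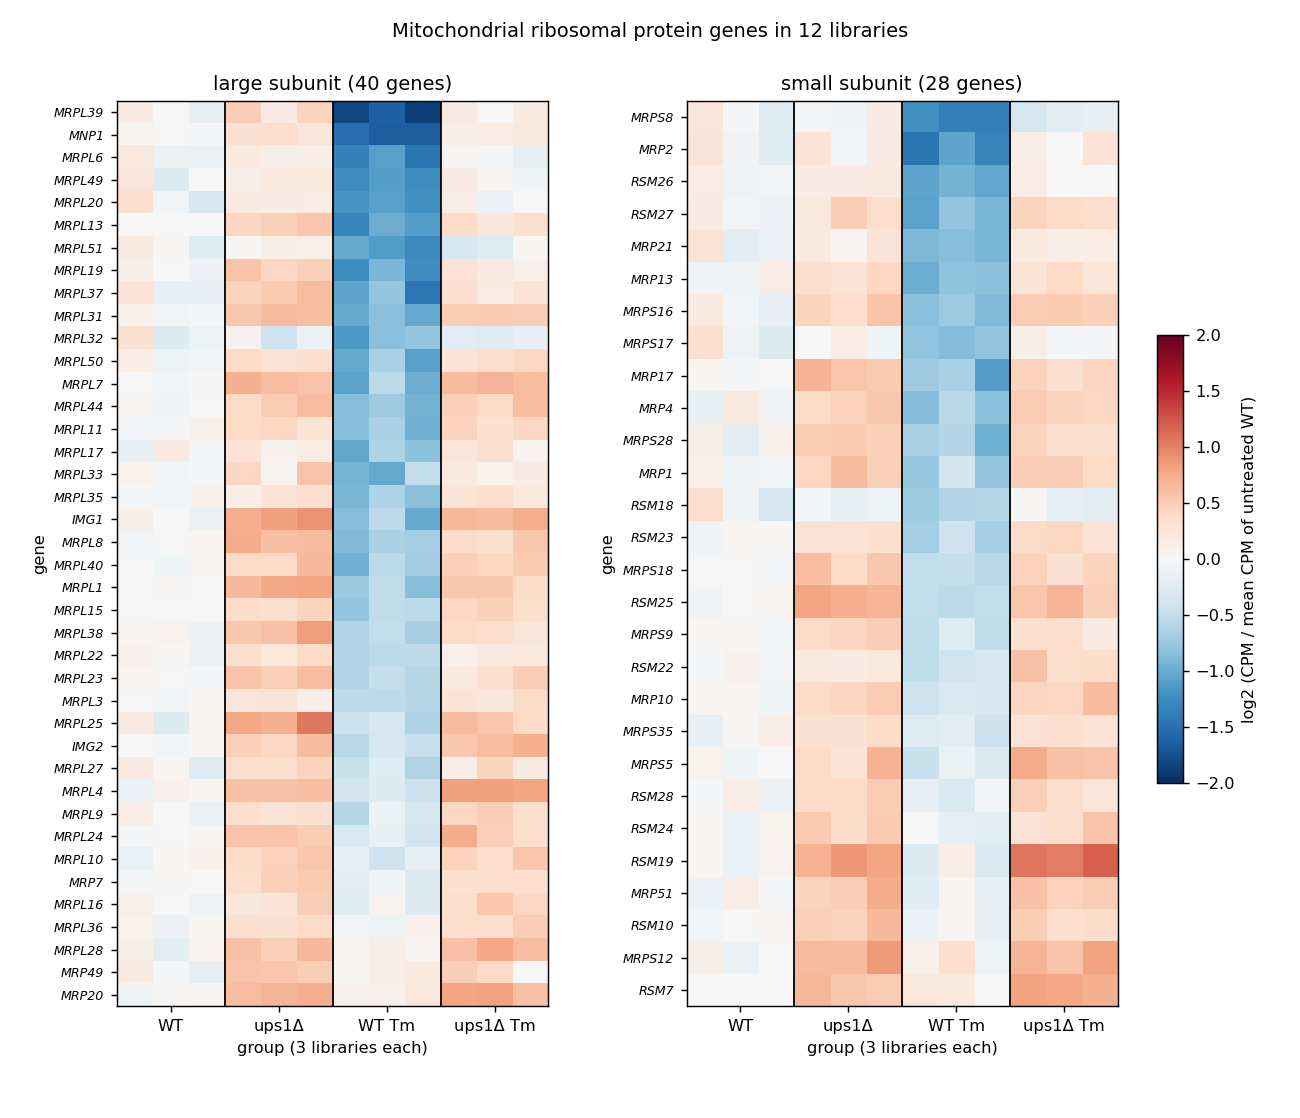
Level of each of the 68 genes (rows, ordered by their response to tunicamycin in wild-type cells) in each of the 12 libraries (columns, 3 per group; Tm, tunicamycin), as log2 of CPM over the mean CPM of untreated wild-type libraries. Most rows are red in both *ups1*Δ groups and blue in treated wild-type cells (Tm), and the lowest rows of each panel are near white in treated wild-type cells; with scaling by library size alone the treated wild-type columns would be lighter, at a median log2 fold change of -0.13 in place of -0.64.

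Most mitochondrial ribosomal protein messages were higher in *ups1*Δ than in wild-type cells without treatment. By edgeR's quasi-likelihood test at an adjusted p under 0.05, 55 of 68 members were higher in *ups1*Δ than in wild-type cells and 0 were lower, where 26.5% of all 5692 genes tested were called higher and 25.8% lower. At an unadjusted p under 0.05 the count of lower members was also 0, and it was 0 by DESeq2. The median log2 fold change was 0.49 over the members and 0.02 over all genes tested. The count was 34 of 40 genes and a median of 0.49 in the large subunit and 21 of 28 genes and a median of 0.48 in the small subunit, with no test of the difference. The median was 0.50 over the 42 genes with a bacterial homologue and 0.46 over the 25 genes specific to mitochondria. Without replicate 3 of untreated *ups1*Δ cells 54 members were higher and 0 lower at a median of 0.43. Relative to the mean of untreated wild-type cells, the per-library median over the members was 0.40, 0.40 and 0.50 on the log2 scale in the *ups1*Δ libraries. In the wild-type libraries, which give that mean and so lie near 0 by construction, it was between -0.03 and 0.05.

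The largest rises of the large subunit were those of *MRPL25*, *IMG1* and *MRPL1*. *MRPL25*, which encodes the mitochondria-specific protein mL59, stood at 35.9, 26.2 and 32.7 CPM in wild-type and at 54.0, 51.5 and 65.9 CPM in *ups1*Δ libraries, and its fitted log2 difference was 0.88 ± 0.14 (SE, adjusted p = 0.00138). *IMG1*, which encodes bL19m and is named for its need in keeping an intact mitochondrial genome, rose from 64.7, 59.1 and 54.1 CPM to 98.6, 104 and 111 CPM (0.85 ± 0.09, adjusted p = 2e-04). *MRPL1*, for the L1 stalk protein uL1m, rose from 53.6, 54.7 and 53.3 CPM to 84.4, 90.8 and 93.4 CPM (0.76 ± 0.08, adjusted p = 0.000165). In all 3 genes the *ups1*Δ libraries lay above every wild-type library. In the small subunit *RSM19*, for uS19m, rose from 33.7, 30.1 and 34.1 CPM to 53.1, 59.3 and 56.5 CPM (0.82 ± 0.10, adjusted p = 0.000338). *RSM25*, for the mitochondria-specific mS23, rose from 49.2, 51.7 and 53.7 CPM to 89.4, 85.1 and 82.7 CPM (0.76 ± 0.08, adjusted p = 0.000182). *MRPS12* rose from 114, 95.1 and 105 CPM to 162, 161 and 189 CPM (0.74 ± 0.09, adjusted p = 0.000457). These 3 groups of values did not overlap either, and groups without overlap were a condition for naming all genes of this paragraph.

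Genes chosen for their roles followed the same course with few exceptions. At the exit tunnel, *MRP20* (uL23m) rose by 0.70 ± 0.08 and *MRPL4* (uL29m) by 0.62 ± 0.09 on the log2 scale. Near the peptidyl transferase centre, *MRP7* (bL27m) rose by 0.49 ± 0.07. In the stalk that recruits translation factors, *MRPL11* (uL10m) rose by 0.39 ± 0.09 and *MNP1* (bL12m) by 0.33 ± 0.06. Of the other role genes of the large subunit *IMG2* (mL49) rose by 0.54 ± 0.10 and *MRPL36* (bL31m) by 0.37 ± 0.08. In the small subunit *MRP51* (bS1m) rose by 0.60 ± 0.10 and *RSM7* (uS7m) by 0.60 ± 0.08. *MRP10* (mS37, a protein with paired cysteine motifs) rose by 0.47 ± 0.09 and *RSM23* (mS29, a GTP-binding protein) by 0.33 ± 0.07. The adjusted p of these genes ran from 0.00024 to 0.00567. *RSM22* missed the threshold at 0.22 ± 0.09 (adjusted p = 0.0526). *MRPL32* (bL32m), whose precursor is matured by an inner membrane protease, stood at 54.0, 36.4 and 40.9 CPM in wild-type and at 46.7, 32.8 and 40.0 CPM in *ups1*Δ libraries, with overlapping groups and a log2 fold change of -0.11 ± 0.18 (adjusted p = 0.63). *RSM18* (bS18m) was the only other member with a fitted value below 0, at -0.06 ± 0.16 (adjusted p = 0.787). *RSM18* was named for this value and not by rule. Replicate 1 of untreated wild-type cells held the highest wild-type value of both genes, and without it the values were 0.07 for *MRPL32* and 0.16 for *RSM18*. Without replicate 2 of *ups1*Δ *MRPL32* was at 0.02, and with library totals alone *RSM18* was at 0.00086.

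**Figure D3:**
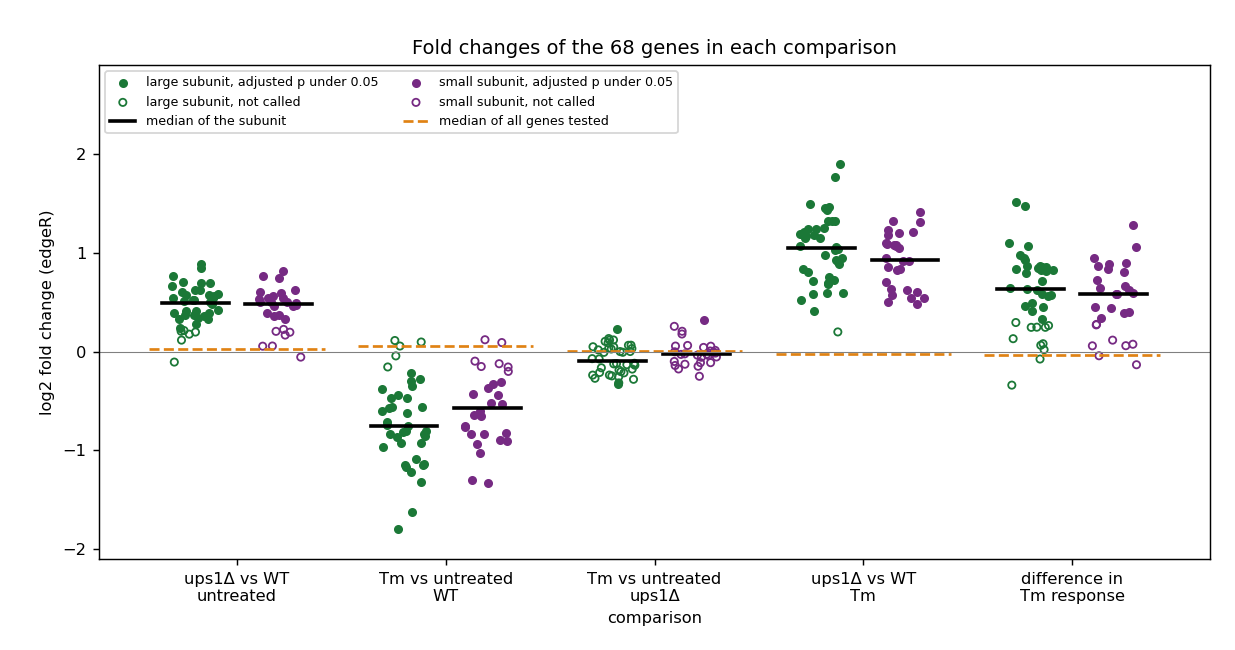
Log2 fold change of each member (y axis, edgeR) in each of the 5 comparisons (x axis), for the large (green) and the small subunit (purple). Filled points passed an adjusted p under 0.05, open points did not, black lines are subunit medians and dashed orange lines are the medians of all genes tested. Members sit above the median of all genes in both genotype comparisons and below it for tunicamycin in wild-type cells, where scaling by library size alone moves the member median from -0.64 to -0.13 and calls 13 members higher, beside 3491 of 5785 genes tested.

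Tunicamycin lowered most of these messages in wild-type cells. Here 56 of 68 members were lower after treatment and 0 were higher, where 37.0% of the 5785 genes tested were called lower and 39.4% higher. At an unadjusted p under 0.05 and by DESeq2 the count of higher members was also 0. The median log2 fold change was -0.64 over the members and 0.05 over all genes tested. The fall was larger in the large subunit, with 35 of 40 genes and a median of -0.75, than in the small subunit, with 21 of 28 genes and a median of -0.57, a difference for which no test was made. In each treated wild-type library the large-subunit median lay below the small-subunit median, by 0.27, 0.09 and 0.12 on the log2 scale. In the untreated wild-type libraries it lay above by 0.02, 0.03 and 0.01. The untreated values lie near 0 by construction, since levels were taken relative to the mean of those libraries. The call of a fall depends on scaling. When libraries were scaled by their totals alone the median of all genes shifted from 0.05 to 0.57, and 24 members were lower and 13 higher, at a median of -0.13. Of the 5785 genes tested, 1218 were then lower and 3491 higher. Relative to the median of all genes the members stood at -0.70 under both scalings. Scaling shifts all genes of a library alike, so this distance could hardly differ and is no check of either scaling. Without replicate 2 of the treated wild-type libraries, 58 members were lower and the median was -0.73.

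The deepest falls in the large subunit were those of *MRPL39*, *MNP1* and *MRPL6*. *MRPL39*, for the small protein bL33m, stood at 47.8, 42.4 and 37.3 CPM in untreated and at 12.0, 13.7 and 11.6 CPM in treated wild-type libraries (-1.79 ± 0.14 on the log2 scale, adjusted p = 1.99e-06). *MNP1* fell from 107, 104 and 100.4 CPM to 36.2, 33.0 and 33.2 CPM (-1.62 ± 0.08, adjusted p = 1.45e-07). *MRPL6*, for uL6m, fell from 77.1, 61.2 and 61.5 CPM to 26.1, 31.2 and 24.1 CPM (-1.32 ± 0.14, adjusted p = 1.19e-05). Each treated library held well under the lowest untreated value of the gene, and groups without overlap were a condition for naming. In the small subunit *MRPS8*, for uS8m, fell from 57.4, 47.3 and 41.3 CPM to 20.9, 18.9 and 18.9 CPM (-1.33 ± 0.14, adjusted p = 1.37e-05). *MRP2*, for uS14m, fell from 49.6, 39.4 and 34.9 CPM to 15.0, 19.8 and 16.3 CPM (-1.30 ± 0.17, adjusted p = 5.72e-05). *RSM26*, for mS42, a relative of manganese superoxide dismutase, fell from 87.7, 73.5 and 76.4 CPM to 38.2, 41.0 and 38.5 CPM (-1.03 ± 0.10, adjusted p = 6.75e-06). All 6 genes kept their call when libraries were scaled by their totals alone.

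Among the role genes the partner of *MNP1* in the factor-recruiting stalk, *MRPL11*, fell by 0.84 ± 0.11, *MRPL32* by 0.93 ± 0.17, *IMG1* by 0.80 ± 0.14, *RSM23* by 0.61 ± 0.10, *IMG2* by 0.47 ± 0.12, *RSM22* by 0.43 ± 0.10, *MRPL4* by 0.38 ± 0.10, *MRP10* by 0.37 ± 0.10 and *MRP7* by 0.21 ± 0.08 on the log2 scale, with adjusted p from 7.68e-05 to 0.0386. With library totals alone *IMG1* and *RSM23* kept the sign without passing, and *IMG2*, *RSM22*, *MRPL4*, *MRP10* and *MRP7* turned positive. The call of *MRP7* was lost when any library but replicate 2 of the treated cells was left out. The remaining 12 members were not called, between -0.20 and 0.12, and all 12 were called higher with library totals alone. Among them *MRP20* stood at 60.9, 66.1 and 67.2 CPM before and at 68.3, 69.8 and 74.7 CPM after treatment (0.11 ± 0.09, adjusted p = 0.255). *RSM7* stood at 57.1, 56.8 and 57.1 CPM and at 65.9, 65.6 and 57.1 CPM (0.12 ± 0.09, adjusted p = 0.261). *MRPS12* stood at 114, 95.1 and 105 CPM and at 112, 129.8 and 97.1 CPM (0.09 ± 0.12, adjusted p = 0.497). *MRPL36* gave -0.04 ± 0.09 (adjusted p = 0.668) and *MRP51* -0.12 ± 0.11 (adjusted p = 0.314). Fitted values ran from -1.79 to 0.11 in the large subunit and from -1.33 to 0.12 in the small subunit, and the plot of levels by library shows genes from both ends. Without replicate 2 of the treated cells *MRPS12* was at -0.04 and *MRP51* at -0.23, and the latter was then called lower.

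**Figure D4:**
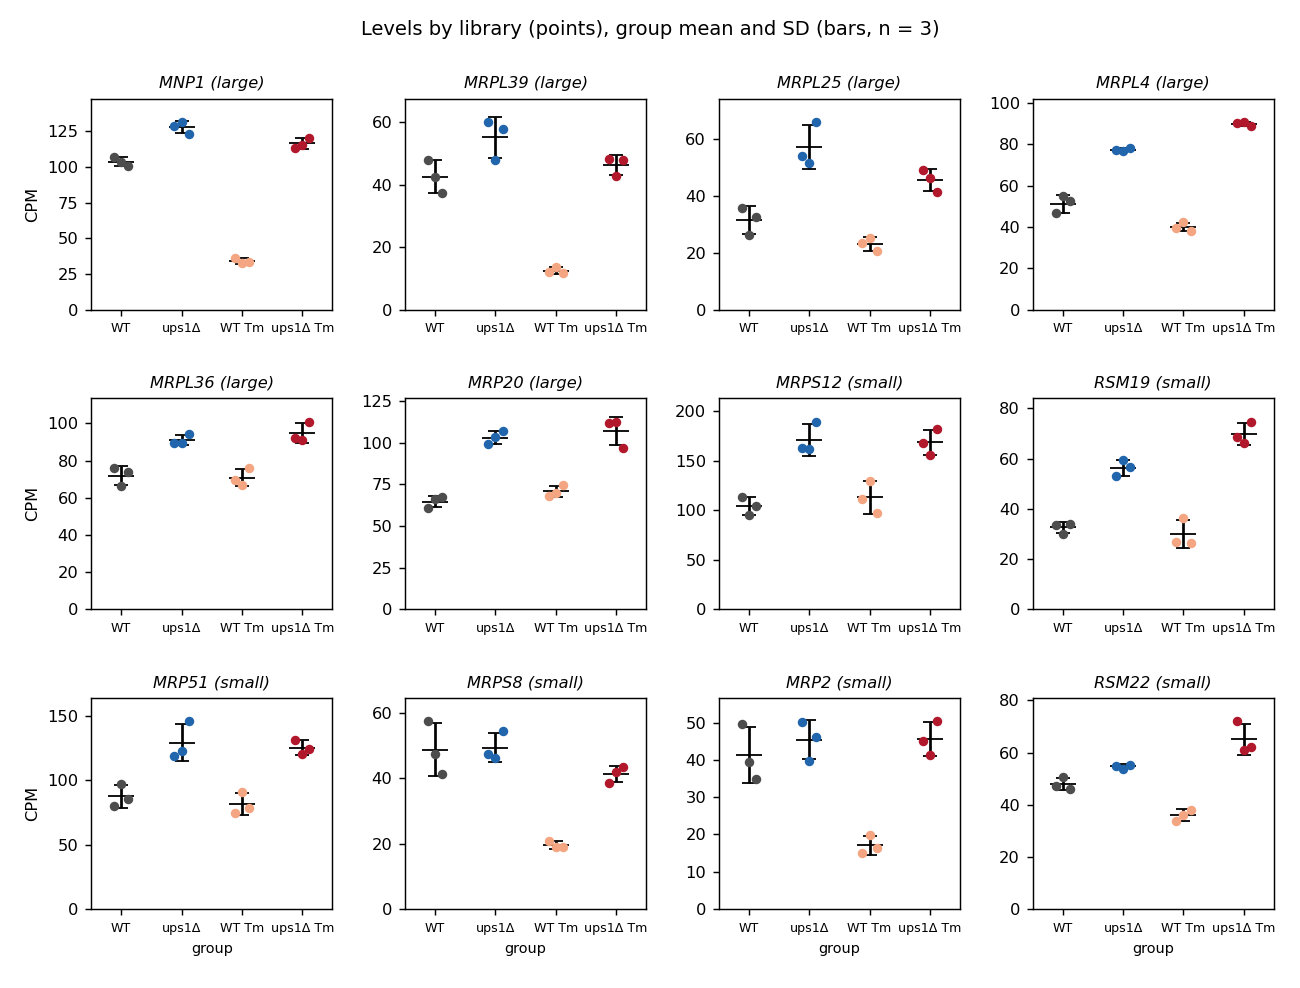
CPM of 12 members (1 panel each, y axis from 0) in each library of the 4 groups (x axis; Tm, tunicamycin), with points for libraries and bars for the group mean and SD (n = 3). *MNP1* and *MRPL39* drop in treated wild-type cells (34.1 and 12.4 CPM on average) and hold near their untreated level in treated *ups1*Δ cells (116 and 46.3 CPM), whereas *MRP20* and *MRPS12* are higher in both *ups1*Δ groups with no drop called in treated wild-type cells.

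In *ups1*Δ cells few changes were called on tunicamycin. Here 2 of 68 members were called higher and 1 lower, where 15.2% of the 5700 genes tested were called higher and 11.9% lower. The median log2 fold change was -0.03 over the members, 0.01 over all genes tested, -0.10 over the large and -0.03 over the small subunit, and it was 0.07 over the members when libraries were scaled by their totals alone. The members' values lay between -0.33 and 0.32, and 0 of 68 exceeded 0.5 in size, while 43 of 68 did so in wild-type cells. *MRPL4* rose from 77.3, 76.6 and 77.9 CPM to 90.4, 90.6 and 88.8 CPM (0.23 ± 0.07, adjusted p = 0.0395). *RSM19* rose from 53.1, 59.3 and 56.5 CPM to 68.7, 66.2 and 74.6 CPM (0.32 ± 0.09, adjusted p = 0.027). *MRPL38*, for uL14m, fell from 66.1, 68.6 and 81.4 CPM to 59.7, 58.1 and 53.8 CPM (-0.33 ± 0.10, adjusted p = 0.0444). The groups of each gene did not overlap, which was a condition for naming, but all 3 calls were lost when any 1 of the treated libraries was left out. Leaving out untreated replicates 1 or 2 also ended the call of *MRPL4*, replicate 1 that of *RSM19*, and replicates 2 or 3 that of *MRPL38*. By DESeq2 *MRPL4* and *RSM19* were not called. Of the 15 role genes, the 14 other than *MRPL4* were not called and lay between -0.14 (*IMG1*) and 0.25 (*RSM22*).

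The genotypes were further apart under tunicamycin than without it. Among treated cells 67 of 68 members were higher in *ups1*Δ than in wild-type and 0 lower, where 32.7% of the 5771 genes tested were called higher and 33.6% lower. The median log2 fold change was 1.03 over the members and -0.03 over all genes tested, with 39 of 40 genes and a median of 1.04 in the large subunit and 28 of 28 genes and a median of 0.93 in the small subunit. No member was lower at an unadjusted p under 0.05 or by DESeq2. Scaling by library totals alone kept 62 members higher at a median of 0.73, with the median of all genes at -0.32. Of all 5771 genes tested, 1237 were then higher and 2967 lower. Without replicate 2 of treated wild-type cells 67 members were higher at a median of 1.06. Summed over the members, the mean level was 2770 CPM in treated wild-type and 5288 CPM in treated *ups1*Δ cells.

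*MRPL39* stood at 12.0, 13.7 and 11.6 CPM in treated wild-type and at 48.3, 42.7 and 48.0 CPM in treated *ups1*Δ libraries, the largest difference of the large subunit (1.89 ± 0.12, adjusted p = 1.27e-06). *MNP1* followed with 36.2, 33.0 and 33.2 CPM against 113, 115 and 120.4 CPM (1.77 ± 0.09, adjusted p = 3.25e-07). *MRPL7*, for uL5m of the central protuberance, stood at 26.8, 38.8 and 28.3 CPM against 87.2, 90.2 and 86.2 CPM (1.49 ± 0.13, adjusted p = 6.48e-06). Replicate 2 of the treated wild-type cells was the highest of its group for *MRPL39* and *MRPL7* and far below every *ups1*Δ library. In the small subunit *MRP2* stood at 15.0, 19.8 and 16.3 CPM against 45.1, 41.3 and 50.3 CPM (1.41 ± 0.14, adjusted p = 1.18e-05). *MRPS16*, for bS16m, stood at 38.2, 41.6 and 37.0 CPM against 98.0, 98.9 and 95.2 CPM (1.32 ± 0.09, adjusted p = 1.27e-06). *RSM27*, for mS33, stood at 17.9, 21.9 and 20.03 CPM against 51.3, 49.6 and 47.8 CPM (1.31 ± 0.11, adjusted p = 4.45e-06). None of these 6 pairs of groups overlapped, which was a condition for naming them and not a separate result.

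All role genes were higher in treated *ups1*Δ cells. On the log2 scale the difference was 1.45 ± 0.12 for *IMG1*, 1.21 ± 0.11 for *MRPL11*, 1.17 ± 0.09 for *MRPL4*, 1.07 ± 0.11 for *IMG2*, 0.94 ± 0.10 for *RSM23*, 0.85 ± 0.10 for *RSM22*, 0.83 ± 0.10 for *MRP10* and 0.69 ± 0.12 for *MRPL32*. It was 0.63 ± 0.09 for *RSM7*, 0.62 ± 0.09 for *MRP51*, 0.59 ± 0.09 for *MRP20*, 0.58 ± 0.11 for *MRPS12*, 0.52 ± 0.08 for *MRP7* and 0.41 ± 0.09 for *MRPL36*, which lost its call with library totals alone (0.12). The adjusted p of these 14 genes was at most 0.00209. The member that was not called, named for this reason, was *MRP49*, which encodes the mitochondria-specific mL61. It stood at 33.6, 36.1 and 37.7 CPM in treated wild-type and at 46.3, 43.7 and 33.0 CPM in treated *ups1*Δ libraries (0.20 ± 0.13, adjusted p = 0.211). Replicate 3 of *ups1*Δ was the lowest of all 6 libraries, and without it the log2 fold change was 0.34 and was called (adjusted p = 0.022), and with library totals alone it was -0.10.

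The difference between the genotypes in their response to tunicamycin was tested with the product term of genotype and treatment over all 12 libraries. The response was higher in *ups1*Δ for 49 of 68 members and lower for 0, where 32.9% of the 5828 genes tested were called higher and 33.2% lower. The median of the term was 0.59 over the members and -0.03 over all genes, with 29 of 40 genes and a median of 0.63 in the large subunit and 20 of 28 genes and a median of 0.58 in the small subunit. No member was lower at an unadjusted p under 0.05 or by DESeq2. With library totals alone the count was 23 higher and 8 lower at a median of 0.20, with the median of all genes at -0.42. The distance of the members from all genes, 0.62 in place of 0.63, could hardly change, since scaling shifts all genes alike. Of all 5828 genes tested, 1221 were then higher and 2927 lower. Without replicate 2 of treated wild-type cells 52 members were higher and 0 lower at a median of 0.65. The largest terms were those of *MRPL39* (1.52 ± 0.18, adjusted p = 4.87e-06), *MNP1* (1.47 ± 0.10, adjusted p = 3.64e-08) and *MRPL6* (1.10 ± 0.17, adjusted p = 4.77e-05) in the large subunit, and of *MRP2* (1.28 ± 0.21, adjusted p = 0.000105), *MRPS8* (1.05 ± 0.18, adjusted p = 0.000115) and *RSM27* (0.95 ± 0.16, adjusted p = 0.000121) in the small subunit.

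Role genes fell into called and uncalled members of the term. It was called for *MRPL11* (0.84 ± 0.14), *MRPL32* (0.83 ± 0.22), *RSM22* (0.66 ± 0.13), *RSM23* (0.64 ± 0.12), *IMG1* (0.64 ± 0.16), *MRPL4* (0.58 ± 0.12), *IMG2* (0.56 ± 0.14) and *MRP10* (0.39 ± 0.13), with adjusted p from 8.88e-05 to 0.0167. Of these 8 only *MRPL11* kept the call with library totals alone. It was not called for *MRPL36* (0.08 ± 0.12), *MRP7* (0.06 ± 0.10), *MRP51* (0.06 ± 0.14), *RSM7* (0.06 ± 0.11), *MRP20* (-0.08 ± 0.11) and *MRPS12* (-0.13 ± 0.16), whose adjusted p lay between 0.462 and 0.732. With library totals alone the term was negative for all 6 and called lower for 5 of them, the exception being *MRP51*. Exit tunnel protein genes were on both sides, with *MRPL4* called and *MRP20* not.

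**Figure D5:**
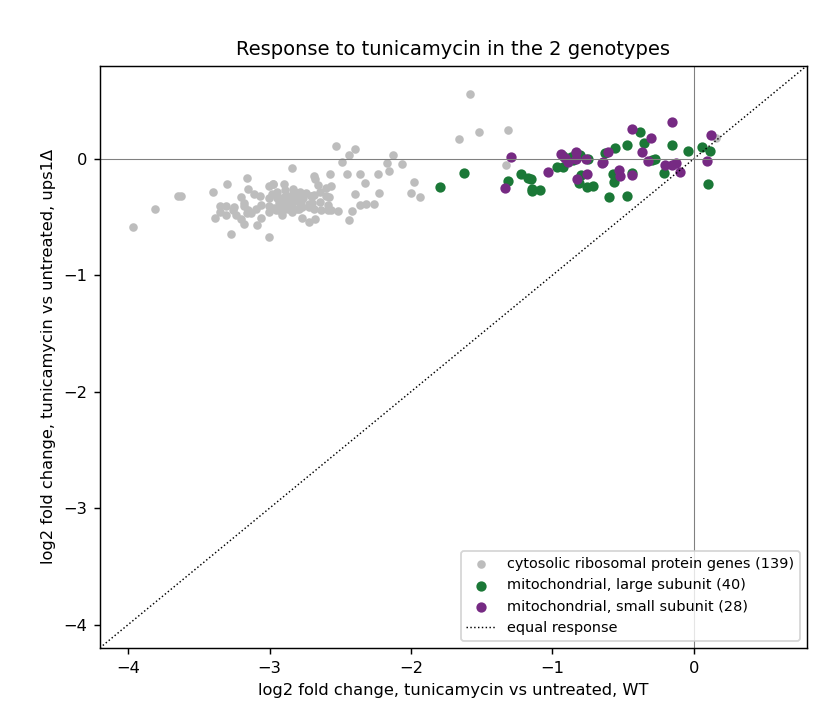
Log2 fold change on tunicamycin in wild-type cells (x axis) against that in *ups1*Δ cells (y axis), each from its own 6 libraries, for genes of the large (green) and the small (purple) mitochondrial subunit and for 139 genes taken by name as cytosolic ribosomal protein genes, with *RPP1* of RNase P among them (grey). The dotted line marks an equal response. Members spread from -1.79 to 0.12 along x and from -0.33 to 0.32 along y, and cytosolic genes lie further left, at a median of -2.83 along x and -0.35 along y; with library totals alone the member medians are -0.13 and 0.07 in place of -0.64 and -0.03.

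Cytosolic ribosomal protein genes, which serve the other translation system of the cell, moved unlike the members in untreated cells. They were taken by name, and the list also holds *RPP1*, which encodes a subunit of RNase P and RNase MRP. On tunicamycin *RPP1* was at -1.32 in wild-type and at 0.25 in *ups1*Δ cells. Of the 139 listed genes 133 (95.7%) were lower and 1 higher in untreated *ups1*Δ cells, beside 25.8% and 26.5% of all genes tested. Their median log2 fold change was -0.53, where the members' median was 0.49. In wild-type cells under tunicamycin 138 of 139 were lower at a median of -2.83, beside 37.0% of all genes tested. In *ups1*Δ cells 96 (69.1%) were lower and 1 higher at a median of -0.35, beside 11.9% and 15.2%. These 3 medians kept their sign with library totals alone (-0.47, -2.31 and -0.25). Among treated cells 138 were higher in *ups1*Δ than in wild-type (median 1.85), beside 32.7% of all genes tested. The product term was called higher for 138 (median 2.44), beside 32.9%. Both medians had the sign of the members' medians, 1.03 and 0.59, and were larger. With library totals alone they were 1.55 and 2.06.

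Mitochondrial ribosomal proteins with names outside the rule formed a further list. Of 12 tested, 10 were higher in untreated *ups1*Δ (median 0.48), beside 26.5% of all genes tested. On tunicamycin in wild-type cells 10 were lower (median -0.55), beside 37.0%. On tunicamycin in *ups1*Δ cells 0 were called, beside 15.2% higher and 11.9% lower. In treated cells 12 were higher in *ups1*Δ than in wild-type (median 1.10), beside 32.7%. For the product term 8 were called higher, beside 32.9%. With library totals alone 2 of the 12 were lower and 3 higher on tunicamycin in wild-type cells (median -0.03), beside 1218 and 3491 of 5785 genes. For the product term 3 were then higher and 2 lower, beside 1221 and 2927 of 5828 genes. In that list *MRP35* fell by 1.19 ± 0.19 on tunicamycin in wild-type cells and was higher by 1.19 ± 0.13 in treated *ups1*Δ cells, where *RTC6* was higher by 1.28 ± 0.14 and *MRX14* by 1.20 ± 0.13. The ribosomal protein made inside mitochondria, Var1, could not be followed, since the 42 mitochondrially encoded features of the table summed to 33 counts over the 12 libraries after poly(A) selection.

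Other genes of mitochondrial translation differed from list to list. Over all genes tested, 26.5% were higher and 25.8% lower in untreated *ups1*Δ, and 39.4% higher and 37.0% lower on tunicamycin in wild-type cells. With library totals alone 3491 of 5785 genes were higher and 1218 lower on tunicamycin in wild-type cells. Of 13 mitochondrial tRNA synthetase genes 12 were higher in untreated *ups1*Δ (median 0.49), and on tunicamycin in wild-type cells 1 was higher and 2 lower (median -0.09), against 10 higher and 0 lower with library totals alone (median 0.43). Of 8 translation factor genes 7 were higher in untreated *ups1*Δ (median 0.56), and on tunicamycin in wild-type cells 4 were lower and 1 higher, against 2 lower and 3 higher with library totals alone. In treated cells the elongation factor genes *MEF1* and *TUF1* were higher in *ups1*Δ by 1.30 ± 0.10 and 1.10 ± 0.12. Another list held 18 translational activators and other factors that act on single mitochondrial messages. Of these 5 (27.8%) were higher and 1 lower in untreated *ups1*Δ, near the 26.5% of all genes called higher. On tunicamycin in wild-type cells 7 (38.9%) were higher, near the 39.4% of all genes, and 4 (22.2%) lower, against 12 higher and 0 lower with library totals alone. There *AEP3*, *CBT1* and *ATP22* rose by 1.63 ± 0.15, 1.31 ± 0.16 and 1.28 ± 0.16, opposite to the members.

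Among 14 genes listed for mitochondrial ribosome assembly and maturation, 6 (42.9%) were higher and 1 lower in untreated *ups1*Δ, beside 26.5% and 25.8% of all genes tested. On tunicamycin in wild-type cells 5 (35.7%) were higher and 6 (42.9%) lower, near the 39.4% and 37.0% of all genes tested. With library totals alone 8 were higher and 2 lower. *MAM33*, an acidic matrix protein, fell from 68.9, 66.8 and 61.5 CPM to 24.9, 34.7 and 24.2 CPM on tunicamycin in wild-type cells (-1.25 ± 0.14) and stood at 128, 126 and 118 CPM in treated *ups1*Δ cells, 2.15 ± 0.13 above treated wild-type. *PUS4*, a tRNA pseudouridine synthase kept in this list, fell by 1.60 ± 0.10 on tunicamycin in wild-type cells. *MRH4*, a helicase of large subunit assembly, and *MBA1*, a membrane receptor of the ribosome, were higher in treated *ups1*Δ than in treated wild-type cells by 1.19 ± 0.12 and 1.12 ± 0.10. Of 11 genes of mitochondrial transcription and DNA maintenance, 7 were lower and 1 higher on tunicamycin in wild-type cells, against 2 lower and 3 higher with library totals alone. The DNA-packaging protein *ABF2* was at -1.04 ± 0.17 and the single-strand binding protein *RIM1* at -1.36 ± 0.14. *RIM1* was 1.03 ± 0.12 higher in treated *ups1*Δ than in treated wild-type cells.

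The nuclear genes listed for the respiratory chain and the ATP synthase took another course. Some encode partners of proteins that the mitochondrial ribosome makes, and others, such as *NDE2*, *NDI1* and *SDH2*, do not. Of the 39 listed genes 20 (51.3%) were lower and 2 higher in untreated *ups1*Δ (median -0.31), beside 25.8% and 26.5% of all genes tested. On tunicamycin in wild-type cells 17 (43.6%) were higher, near the 39.4% of all genes tested, and 8 (20.5%) lower, beside 37.0%. The median was 0.16 there, and with library totals alone 32 were higher and 1 lower, beside 3491 and 1218 of 5785 genes. In treated cells 27 (69.2%) were lower and 2 higher in *ups1*Δ than in wild-type (median -0.64), beside 33.6% and 32.7% of all genes tested. *NDE2*, an external NADH dehydrogenase, rose from 0.221, 0.696 and 1.80 CPM to 43.3, 21.7 and 27.1 CPM on tunicamycin in wild-type cells (4.98 ± 0.48) and was higher in untreated *ups1*Δ (3.35 ± 0.57), from few counts in untreated wild-type libraries. *NDI1* and *SDH4* both rose by 1.24 there, with SE of 0.09 and 0.13. In treated cells *NDE2*, *SDH2* and *QCR9* were lower in *ups1*Δ, at -2.12 ± 0.28, -1.65 ± 0.10 and -1.48 ± 0.09.

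*PUF3* itself stood at 40.5, 43.1 and 38.1 CPM in untreated wild-type, at 60.6, 51.7 and 60.2 CPM in untreated *ups1*Δ, at 34.6, 38.6 and 36.0 CPM in treated wild-type and at 58.5, 61.0 and 52.8 CPM in treated *ups1*Δ libraries. It was higher in *ups1*Δ both untreated (0.53 ± 0.10, adjusted p = 0.00284) and treated (0.66 ± 0.10, adjusted p = 0.000197), and no change was called on tunicamycin in wild-type cells (-0.18 ± 0.10, adjusted p = 0.141), where scaling by library totals alone turned it to 0.34. *PUF3* was named for the motif and not by rule. Of 752 tested genes outside the group that hold TGTANATA, 280 (37.2%) were higher and 147 (19.5%) lower in untreated *ups1*Δ at a median of 0.17, beside 26.5% and 25.8% of all genes tested. On tunicamycin in wild-type cells 252 of 758 (33.2%) were higher and 297 (39.2%) lower, beside 39.4% and 37.0% of all genes tested. Genes of the other mitochondrial lists were not taken out of this set, and its counts were not made with library totals alone. In the list of post-transcriptional and retrograde regulators, the retrograde factor *RTG3* rose by 1.43 ± 0.10 on tunicamycin in wild-type cells, and *TOD6*, a repressor of ribosome biogenesis genes, rose by 1.17 ± 0.13 on tunicamycin in *ups1*Δ cells.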

How the data were processed

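Log-phase cells were profiled by stranded poly(A) RNA sequencing. The authors quantified reads with kallisto against the sacCer3 reference and deposited estimated counts per gene, which were rounded to whole numbers here. Deposited tables with the authors' normalised counts, fold changes and p-values were not used. Names, positions and windows came from the R64 annotation (the sacCer3 assembly), which held 6048 of 7110 features. Groups followed the labels. Each pairwise comparison was fitted on its own 6 libraries, and the product term on all 12, with edgeR 4.0.16 in R 4.3.3 (quasi-likelihood test, robust; TMM scaling; filterByExpr; Benjamini-Hochberg adjustment over all genes tested; adjusted p under 0.05). CPM values use TMM factors from all 12 libraries. The SE of a fitted log2 fold change was computed as its size divided by the square root of its F statistic. Lists were described by counts and medians, and only the fit across all genes gave p-values. The script was tested on simulated data.

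Genes were named by rule: per comparison and subunit, the 3 largest increases and decreases among called members with groups that did not overlap; called members against the majority where 5 or fewer; 15 members by role; and, from each other list, at most 3 called genes per comparison whose log2 difference was 1 or more in size. Members and lists were chosen with earlier results of these data known. Alternatives were DESeq2 size factors, library totals alone, DESeq2 1.42.0, other count filters, a replicate block, 1 fit of all libraries and leaving out each library. Replicate numbers do not pair libraries here. At these totals 3 counts correspond to at most 0.696 CPM, and the lowest member value was 11.6 CPM (*MRPL39*).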

Additional observations from a re-analysis of the deposited data

Results flagged for a closer look

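The response to tunicamycin differed between wild-type and *ups1*Δ cells by the test of the product term of genotype and treatment (edgeR, adjusted p under 0.05) for 49 members, 29 of the large and 20 of the small subunit, all with the higher response in *ups1*Δ, where 32.9% of all genes tested were called higher. With library totals alone 23 members were higher and 8 lower, beside 1221 and 2927 of 5828 genes tested. Of the genes named next *MRPL32*, *RSM22*, *RSM23*, *IMG1*, *MRPL4*, *IMG2* and *MRP10* then lost the call. Among named members the term was 1.52 for *MRPL39*, 1.47 for *MNP1*, 1.28 for *MRP2*, 1.10 for *MRPL6*, 1.05 for *MRPS8*, 0.95 for *RSM27*, 0.84 for *MRPL11*, 0.83 for *MRPL32*, 0.66 for *RSM22*, 0.64 for *RSM23*, 0.64 for *IMG1*, 0.58 for *MRPL4*, 0.56 for *IMG2* and 0.39 for *MRP10*. Genes of other lists whose response differed were *PUS4* (1.81), *RIM1* (1.45), *TOD6* (1.35), *MRP35* (1.28), *MAM33* (1.27), *ABF2* (1.07) and *MRH4* (1.06) with the higher response in *ups1*Δ. The response of *RTG3* (-1.15), *ATP22* (-1.25), *SDH2* (-1.30), *CBT1* (-1.36), *AEP3* (-1.37), *NDI1* (-1.45) and *NDE2* (-5.44) was lower in *ups1*Δ.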

How the results depend on the processing

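Scaling was the choice that moved results most. With library totals alone the median of all genes shifted by over 0.1 in every comparison but untreated *ups1*Δ against wild-type, and 25.9% in place of 48.4% of the genes called for tunicamycin in wild-type cells were lower, 22.5% in place of 44.0% for tunicamycin in *ups1*Δ, and 70.6% in place of 50.7% and 50.2% for the treated genotype comparison and the product term. Under that scaling the members' medians were 0.54 in untreated *ups1*Δ, -0.13 on tunicamycin in wild-type (24 lower, 13 higher), 0.0705 on tunicamycin in *ups1*Δ (4 higher, 0 lower, large subunit 0.0074), 0.73 in treated *ups1*Δ and 0.20 for the product term (23 higher, 8 lower). Members minus all genes, which scaling can hardly change, stood at 0.47, -0.70, -0.04 and 1.06 in the pairwise comparisons and 0.62 for the term. The sign then changed for 13 of the 56 members called on tunicamycin in wild-type cells and for 2 of the 49 called for the product term. Among the genes named by role or for their motif, called or not, it changed on tunicamycin in wild-type cells for *MRPL36* (0.48), *MRP51* (0.40), *PUF3* (0.34), *MRP7* (0.31), *MRP10* (0.15), *MRPL4* (0.14), *RSM22* (0.086) and *IMG2* (0.049), for the product term of *MRP51* (-0.33), *RSM7* (-0.33), *MRP7* (-0.32) and *MRPL36* (-0.31), for *MRP49* in treated cells (-0.10) and for *RSM18* in untreated cells (0.00086).

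The few calls on tunicamycin in *ups1*Δ were 0 higher by DESeq2, with the replicate block and with all 12 libraries in 1 fit, and 4, 0 and 2 lower with DESeq2 size factors, the replicate block and 1 fit. Replicate numbers did not pair libraries: 1 of 18 same-number correlations of deviations passed 0.1 (-0.24 to 0.11), as did 7 of 36 between different numbers. With the replicate block the counts were 55 higher in untreated *ups1*Δ, 55 lower on tunicamycin in wild-type, 67 higher in treated *ups1*Δ and 49 for the product term.

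Leaving out 1 library gave 48 to 57 members higher in untreated *ups1*Δ, 50 to 58 lower on tunicamycin in wild-type, 67 to 68 higher in treated *ups1*Δ, 45 to 52 for the product term, and 0 to 3 higher and 0 to 2 lower on tunicamycin in *ups1*Δ. Ranges that crossed 0 were -0.23 to 0.0696 for *MRPL32* and -0.21 to 0.16 for *RSM18* in untreated cells, -0.044 to 0.18 for *MRPS12* on tunicamycin in wild-type cells, and -0.011 to 0.16 for *MRP51* and -0.00727 to 0.12 for *RSM7* in the product term. The cause of these changes was not tested. With 3 libraries a group the median SE of a member was 0.088 to 0.114 in the pairwise comparisons, and the highest was 0.187. Differences well above 0.1 could therefore also go uncalled, such as the 0.25 of *RSM22* on tunicamycin in *ups1*Δ cells.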

Other observations

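Coding length was set beside the response to tunicamycin in wild-type cells. Over the 68 members the fitted log2 fold change had a Spearman's rho of 0.28 and a Pearson's r of 0.26 with coding length, a description only, since the points share the same 6 libraries and the length enters the precision of each count. *MRPL39*, which fell furthest, has a coding length of 213 bases. On tunicamycin in *ups1*Δ cells, where few members were called, the values were 0.25 and 0.33, and in untreated *ups1*Δ cells -0.08 and -0.08. With the level per kilobase in untreated wild-type cells, which enters the fold change, rho was -0.35 on tunicamycin in wild-type cells.

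Members were also described by their motif sites. The 54 members with a C 2 bases before TGTANATA and the 13 without it had medians of 0.49 and 0.41 in untreated *ups1*Δ cells and of -0.66 and -0.65 on tunicamycin in wild-type cells. The 54 members with 1 site and the 13 with more had medians of -0.75 and -0.56 on tunicamycin in wild-type cells. No test was made of these differences.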
